A study of Mus musculus with 12 samples.

Results

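The rod phototransduction genes described here are Gnat1, Gnb1, Gngt1, Pde6a, Pde6b, Pde6g, Cnga1, Cngb1 and Sag. They were picked by gene symbol as parts of the rod cascade and are 9 of the 25124 genes listed. All 9 were present in both expression tables with the same transcript in each, and all 9 passed the filter on low values, which asked for 0.5 FPKM or more on average over the libraries of a table. FPKM are fragments per kilobase of transcript, scaled to the tags of the library. Each gene had between 5860 and 689292 reads in every library, so counting error alone is small.

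Rods are the dim-light photoreceptors and the most numerous cells of the mouse retina. Light absorbed by the rod visual pigment activates transducin, a G protein whose alpha subunit (Gnat1) leaves its beta and gamma partners (Gnb1, Gngt1) and relieves the inhibition that the gamma subunits (Pde6g) place on the catalytic phosphodiesterase pair (Pde6a, Pde6b). The enzyme breaks down cyclic GMP, the cation channel built from Cnga1 and Cngb1 subunits closes, and arrestin (Sag) ends the response by capping the phosphorylated pigment. Gnb1 is used by many cell types, while the other genes are largely restricted to photoreceptors in the retina.

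The measurements are poly(A) RNA-seq of whole retinas of wild type C57BL/6J mice, 12 libraries in 6 groups of 2. For the single-IOP series, 1 eye was held at an intraocular pressure (IOP) of 30 mmHg for 1 hour and the contralateral eye was left untreated, and retinas were taken 2 days later at 3 months of age (3mo IOP and 3mo control) or at 18 months (18mo IOP and 18mo control). In the repeated series the same elevation was applied 4 times at biweekly intervals to animals aged 3 months when it began, and retinas were collected 2 days after the last (4xIOP and the untreated contralateral 4xIOP control). The labels do not say which treated and control retinas came from the same animal, and both eyes of an animal shared the anaesthesia. Depth lay between 39766236 and 59455056 tags per library, of which 44.2% to 71.5% were in exons. The tables of the 2 series were made separately, so tests were made only within a table. Untreated and treated eyes of 18mo animals were compared with those of 3mo animals, and treated with control eyes at each age and after 4 elevations. Of the other retinal cell types, the summed markers of cones, bipolar cells, amacrine and horizontal cells, ganglion cells, Muller glia and microglia were above 0 in all 12 libraries, with no marker listed at 0.

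In 3mo control retinas the genes ordered by FPKM, a level per transcript length, as Gngt1 (7142 ± 4005, SD, n = 2), Sag (6147 ± 2607), Gnat1 (5479 ± 269), Pde6g (3069 ± 402), Gnb1 (1811 ± 80.2), Pde6b (909.8 ± 58.6), Pde6a (696 ± 61.8), Cnga1 (539 ± 40.8) and Cngb1 (222 ± 15.7). The highest 3 did not differ beyond their spread, because both Gnat1 values lay between the 2 values of Gngt1 and between those of Sag. From Pde6g downwards each gene lay below its neighbour in both libraries. Together the 9 genes took 6.06% and 7.32% of the exon reads of 3mo control retinas and 5.97% and 6.12% of those of 3mo IOP retinas. In the older retinas this share was 4.08% and 3.61% in control and 2.90% and 3.77% in IOP eyes. It was 3.42% and 3.37% in 4xIOP control eyes and 2.01% and 2.56% in 4xIOP eyes, so both treated libraries lay below both controls there.

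**Figure D1:**
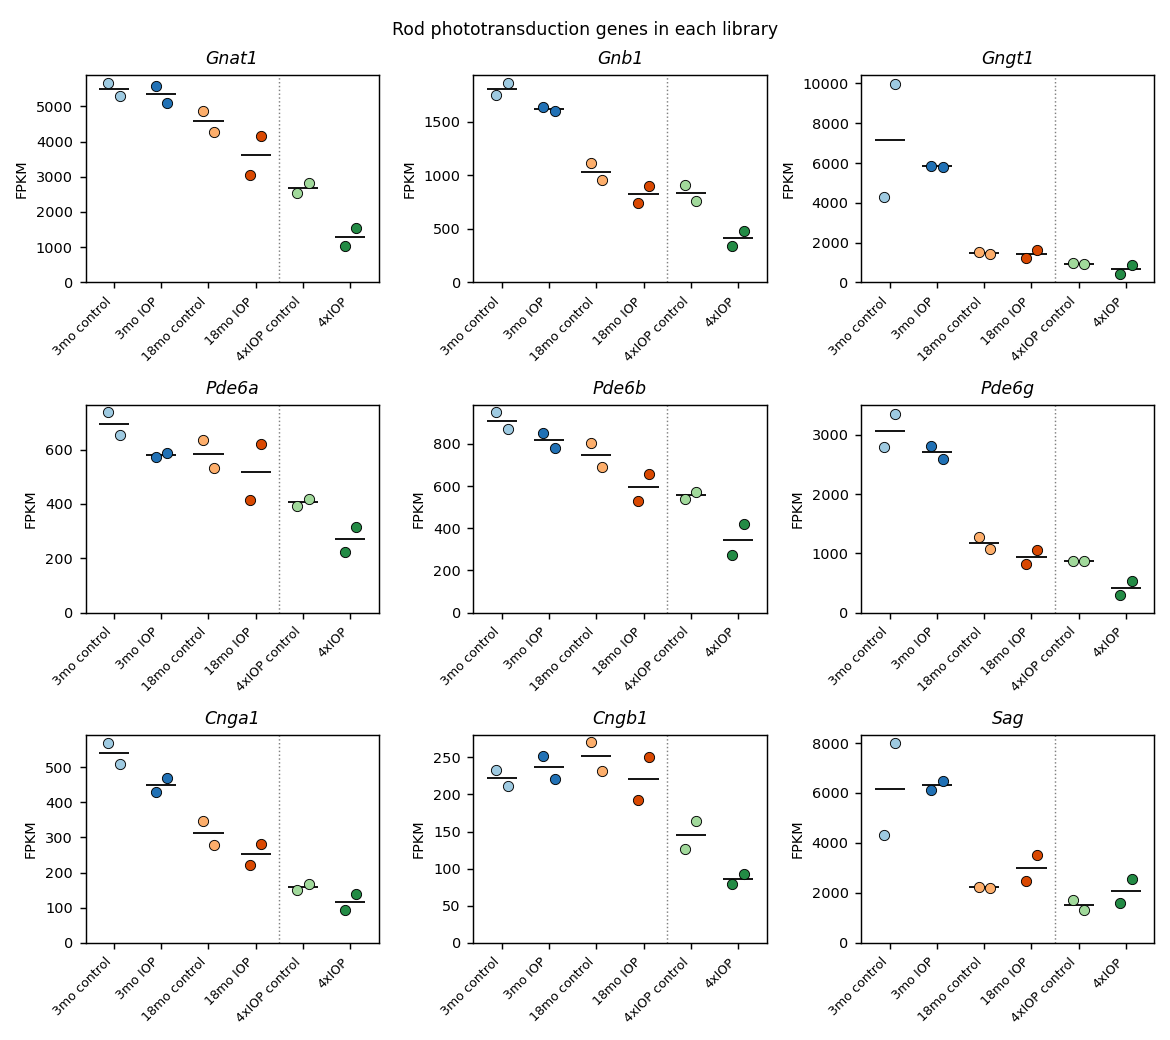
FPKM of each of the 9 genes (vertical axes from 0) in the 12 libraries by group, with circles for single libraries and a line for the mean of the group. The dotted line separates the series, which were normalized separately. Gngt1 and Pde6g lay below every 3mo library in every 18mo library, whereas Cngb1 overlapped between the ages, and 4xIOP libraries lay below their controls for all genes but Sag.

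In untreated eyes, 3 of the 9 genes were called lower at 18mo than at 3mo and none higher. These were Gngt1, Pde6g and Sag, with log2 fold changes of -2.16, -1.38 and -1.40. A call required that limma's p-value, adjusted after Benjamini and Hochberg, was 0.05 or less and that the log2 fold change was 1 or more in size, and by this rule 11.6% of the 13731 genes tested were called lower and 11.6% higher. Both 18mo libraries lay below both 3mo libraries for 8 of the 9, against 32.8% of all genes, and the median log2 fold change of the 9 was -0.79 against 0.16 for all genes. In whole retina, fewer rods and less RNA per rod cannot be told apart. None of the 9 was called without the filter on low values (adjusted p of 0.265 for Gngt1, 0.256 for Pde6g and 0.569 for Sag in limma) or when the 2 untreated groups were fitted alone (0.0502, 0.0755 and 0.128), at unchanged fold changes. Under quantile normalization none was called either, and Gnat1 (0.46), Pde6a (0.36), Pde6b (0.42) and Sag (0.04) had log2 fold changes above 0. Over all genes, fewer were called lower without 3mo control replicate 2 or either 18mo control library, and more without 3mo control replicate 1. Each of these fits leaves 1 library in a group. Leaving out either 18mo control library also left none of the 9 called, which for Gngt1 gave adjusted p-values of 0.0711 and 0.0816 in limma with log2 fold changes of -2.19 and -2.12.

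The 3 transducin subunits differed in how far apart the ages were. Gnat1 (NM_008140, mm10 chr9:107674437-107679634, minus strand) had 5669 and 5289 FPKM in the 3mo control and 4868 and 4277 FPKM in the 18mo control libraries. These groups did not overlap, but the log2 fold change of -0.26 (standard error 0.43, adjusted p = 0.634 in limma) did not pass the test. Gnb1 (NM_001160017, chr4:155491361-155559269, plus strand) went from 1754 and 1867 FPKM to 1119 and 954 FPKM. Its log2 fold change of -0.81 (standard error 0.30, adjusted p = 0.0579 in limma) missed both thresholds although the libraries of the 2 ages were far apart. Gngt1 (NM_010314, chr6:3994008-3997436, plus strand) had 4310.1 and 9974 FPKM at 3mo, the widest spread of any of the 9 genes in 3mo control eyes, and 1505 and 1433 FPKM at 18mo. Even the lower 3mo library stood well above both 18mo libraries, and the log2 fold change was -2.16 (standard error 0.48, adjusted p = 0.0110 in limma). Without 3mo control replicate 2, the library with the higher value, it was -1.55 (adjusted p = 0.0141 in limma), so the call did not rest on that library.

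Among the phosphodiesterase subunits, the inhibitory one was called and the catalytic pair was not, a contrast that was lost with the trend on transcript length removed, where the log2 fold changes were -0.54 for Pde6g, -0.53 for Pde6a and -0.44 for Pde6b and none was called. Pde6g (NM_012065, chr11:120447607-120453500, minus strand) fell from 2785 and 3353 FPKM at 3mo to 1281 and 1074 FPKM at 18mo, a log2 fold change of -1.38 (standard error 0.34, adjusted p = 0.0147 in limma). Pde6b (NM_008806, chr5:108388373-108431742, plus strand), which encodes the beta catalytic subunit, had 951 and 868 FPKM at 3mo and 804 and 691 FPKM at 18mo. Pde6a (NM_146086, chr18:61220474-61289718, plus strand), the alpha catalytic subunit, had 739.5 and 652 FPKM and 636 and 534 FPKM. The 18mo values of both catalytic genes lay just below the 3mo values, with log2 fold changes of -0.29 (adjusted p = 0.410 in limma) and -0.25 (adjusted p = 0.492 in limma). Their 95% confidence intervals, -0.92 to 0.34 for Pde6b and -0.92 to 0.41 for Pde6a, leave room for changes in either direction.

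The channel genes were apart from each other. Cnga1 (NM_007723, chr5:72603697-72642752, minus strand), the subunit that can form the pore alone, had 568 and 510.2 FPKM at 3mo and 346 and 279.7 FPKM at 18mo. Its log2 fold change of -0.79 (standard error 0.25) had a limma adjusted p of 0.0325 and was under the fold threshold. Cngb1 (NM_145601, chr8:95290593-95306585, minus strand) had 233 and 211 FPKM at 3mo and 271 and 232 FPKM at 18mo. The 2 ages overlapped, and the log2 fold change was 0.17 (standard error 0.23, adjusted p = 0.557 in limma). The Cngb1 transcript counted spans 23.7% of the gene as annotated in GENCODE (95239045 to 95306585), from its 5′ end. Such short transcripts of this locus encode the glutamic acid-rich protein of the outer segment rather than the whole channel subunit, so the value of Cngb1 does not measure the full-length transcript alone.

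Sag (NM_009118, chr1:87803680-87845157, plus strand) had 4304 and 7990.3 FPKM in the 3mo control and 2236 and 2195 FPKM in the 18mo control libraries. As for Gngt1, the higher 3mo value came from replicate 2, and both 18mo values were close together. The log2 fold change was -1.40 (standard error 0.47, adjusted p = 0.0397 in limma). Without 3mo control replicate 2 it was -0.96 (adjusted p = 0.0750 in limma), which is no call.

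In IOP-treated eyes, 2 of the 9 genes, Gngt1 and Pde6g, were called lower at 18mo, with 11.6% of all genes called lower in this comparison. Fewer genes were called lower in each fit with a library of these groups left out, where a group keeps 1 library. The cause was not tested. The median log2 fold change of the 9 genes lay between -1.01 and -0.67 in these fits. For 7 of the 9, both 18mo IOP libraries lay below both 3mo IOP libraries, against 34.5% of all genes. These treated libraries share no library with the untreated comparison, but the animals may be the same. Gngt1 had 5851 and 5812 FPKM in the 3mo IOP and 1227 and 1645 FPKM in the 18mo IOP libraries, a log2 fold change of -2.04 (standard error 0.48, adjusted p = 0.0149 in limma). Here the 3mo values differed little, unlike those of the untreated eyes. Pde6g had 2806 and 2595 FPKM at 3mo and 814 and 1051 FPKM at 18mo, with a log2 fold change of -1.54 (standard error 0.34, adjusted p = 0.0119 in limma). Neither was called without 3mo IOP replicate 1, without 3mo IOP replicate 2 or without 18mo IOP replicate 1, where the log2 fold change lay between -2.04 and -1.83 for Gngt1 and between -1.60 and -1.36 for Pde6g. Neither was called without the filter on low values (adjusted p of 0.289 for Gngt1 and 0.207 for Pde6g in limma) or under quantile normalization, where the log2 fold change was -0.97 for Gngt1 and -0.70 for Pde6g.

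The other genes were lower in the treated 18mo eyes without reaching both thresholds. Gnb1 had 1636 and 1607 FPKM at 3mo and 739 and 906 FPKM at 18mo (log2 fold change -0.99, adjusted p = 0.0328 in limma). Cnga1 had 428 and 469 FPKM at 3mo and 223 and 281 FPKM at 18mo (log2 fold change -0.84, adjusted p = 0.0287 in limma). Both passed the adjusted p and stayed under the fold threshold. Sag went from 6137 and 6466 FPKM to 2488 and 3534 FPKM (log2 fold change -1.09, adjusted p = 0.0916 in limma), past the fold threshold but not the test. Gnat1 (-0.58) and Pde6b (-0.46) did not overlap between the ages, while Pde6a (-0.19) and Cngb1 (-0.10) did, and none of these 4 log2 fold changes passed the test (limma adjusted p of 0.197 or more).

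**Figure D2:**
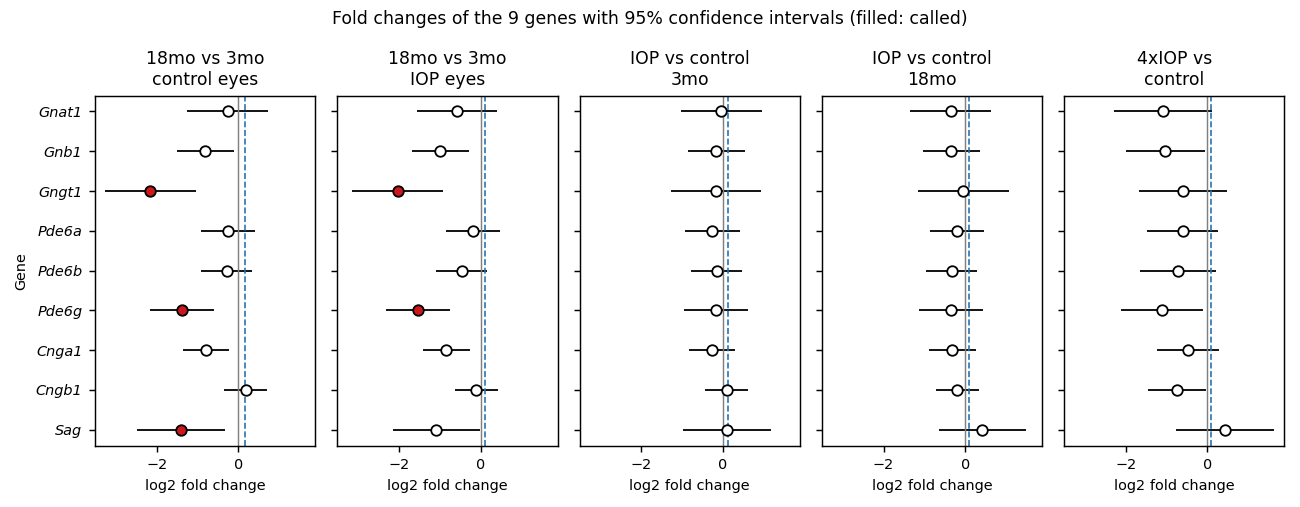
Log2 fold changes of the 9 genes (horizontal axes) with 95% confidence intervals from limma in the 5 comparisons, with filled circles for called genes, a grey line at 0 and a dashed blue line at the median of all genes tested. Calls were made in the 2 age comparisons alone, and the intervals of the single-elevation comparisons all include 0.

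The age differences were read against transcript length, because over all genes the age difference went with the length of the counted transcript. Transcripts under 1000 bases had a median log2 fold change of -0.88 (1481 genes) in untreated eyes and those of 4000 bases or more had 0.49 (3873 genes), with a Spearman correlation of 0.405 taken across genes, which are no independent replicates. The ratio of the median FPKM of short to that of long protein-coding transcripts was 1.89 and 4.70 in the 3mo control and 1.28 and 1.21 in the 18mo control libraries. Pde6g and Gngt1 are the shortest of the 9, at 913 and 962 bases, and Sag has 1700 bases. With the trend on transcript length removed from each library, Gngt1 (log2 fold change -1.36, adjusted p = 0.00586 in limma) and Sag (-1.20, adjusted p = 0.0162 in limma) were still called in untreated eyes. Pde6g was not (-0.54, adjusted p = 0.0887 in limma). In treated eyes Gngt1 (-1.21, adjusted p = 0.0102 in limma) was called after this step and Pde6g (-0.68, adjusted p = 0.0480 in limma) was under the fold threshold. Gnb1, with 3078 bases, was then called in treated eyes, with a log2 fold change of -1.14.

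**Figure D3:**
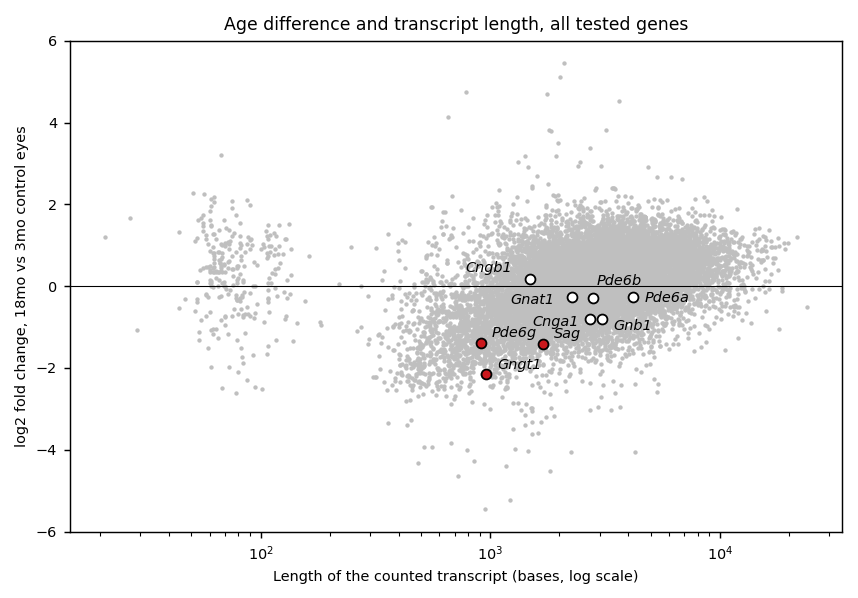
Log2 fold change between 18mo and 3mo control eyes (vertical axis) against the length of the counted transcript (log axis), with grey points for all 13731 genes tested, apart from 1 gene outside the vertical axis, and circles for the 9 genes, filled where called. The called genes are at 913, 962 and 1700 bases, on the left side of the rising cloud, and the other members lie closer to 0, among them Cngb1, which at 1497 bases is shorter than Sag.

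Ratios between subunits in the same library do not change with a scaling by 1 factor per library, and they differed in their stability. The catalytic pair had a similar ratio throughout, with Pde6a at 0.674 to 0.943 of Pde6b over the 12 libraries. The ratio of Pde6g to Pde6b was 2.93 and 3.86 in 3mo control and 3.30 and 3.32 in 3mo IOP libraries, but 1.59 and 1.55 in 18mo control and 1.53 and 1.60 in 18mo IOP libraries. The ratio of Gngt1 to Gnat1 was 0.760 and 1.89 in 3mo control and 0.309 and 0.335 in 18mo control libraries. In both cases every 3mo library of the single-IOP series stood above every 18mo library. Gnb1 to Gnat1 ran from 0.293 to 0.353 in the 4 libraries of 3mo eyes and from 0.218 to 0.242 in the 4 of 18mo eyes. Cnga1 to Cngb1 ran from 1.70 to 2.43 and from 1.12 to 1.28, where Cngb1 does not measure the full-length channel subunit alone. In the untreated 4xIOP control eyes of the separate series, Cnga1 to Cngb1 was 1.18 and 1.02. There Pde6g to Pde6b was 1.63 and 1.51 and Gngt1 to Gnat1 0.383 and 0.328, also near the 18mo values. Gnb1 to Gnat1 was 0.360 and 0.269 in those eyes. The difference between the series was not tested. For the 4 ratios that did not overlap between the ages (Gnb1 to Gnat1, Gngt1 to Gnat1, Pde6g to Pde6b and Cnga1 to Cngb1), an exact two-sided permutation test of 4 against 4 libraries gave p = 0.0286, the smallest it can give, and 0.0429 adjusted over the 6 ratios tested. For Pde6a to Pde6b the same exact permutation test gave p = 0.0571 (0.0686 adjusted). The ratios were chosen after their values were seen, so the p-values of the 4 only restate the lack of overlap. Both eyes of an animal may be among the libraries, which would make these p-values too small. With 2 animals per age, an exact two-sided permutation test could not fall below 0.333. The ratio of Pde6g to Pde6b shared the length trend. In untreated eyes its log2 age difference was -1.10 as measured, -0.66 under quantile normalization and -0.10 with the length trend removed. That of Gngt1 to Gnat1 was -1.90, -1.50 and -1.003, and that of Cnga1 to Cngb1 was -0.96, -0.96 and -1.48. In treated eyes the values were -1.08, -0.80 and -0.086 for Pde6g to Pde6b, -1.46, -1.56 and -0.58 for Gngt1 to Gnat1, and -0.74, -0.75 and -1.26 for Cnga1 to Cngb1, so that removing the length trend left less of the difference for both ratios with a short transcript.

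**Figure D4:**
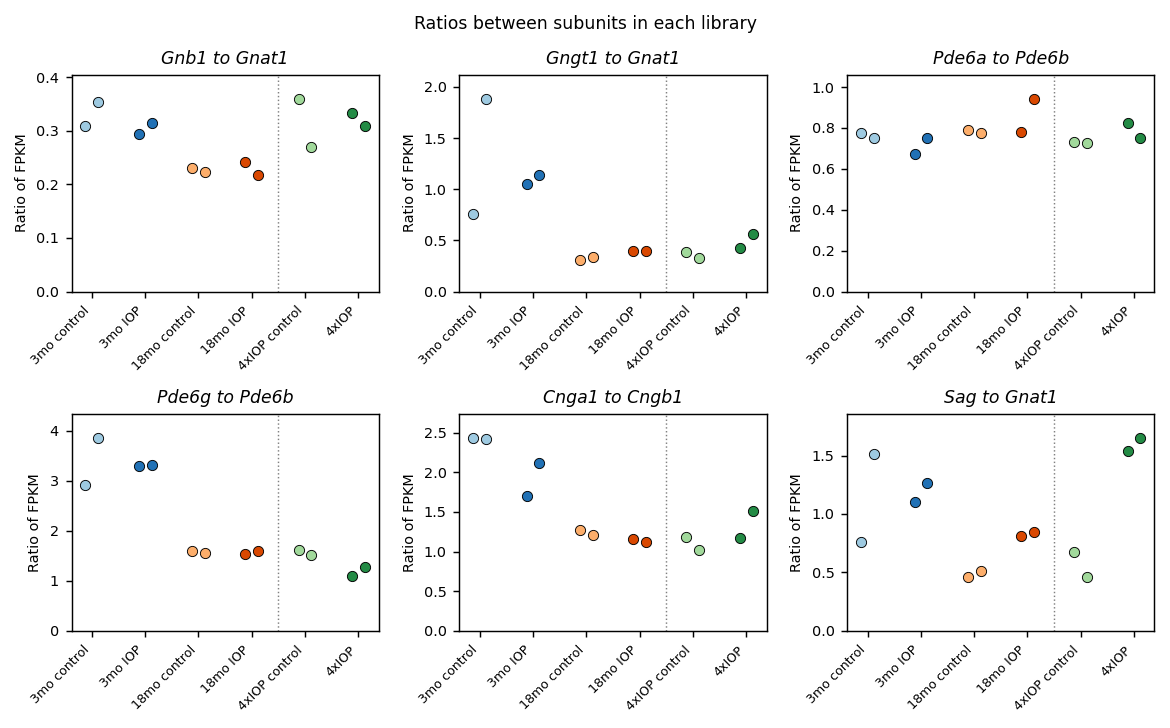
Ratios of FPKM between pairs of the 9 genes (vertical axes from 0) in each library by group, with a dotted line between the series, whose tables were normalized separately. Pde6a to Pde6b stayed between 0.674 and 0.943, while Sag to Gnat1 was higher in both IOP libraries than in both control libraries at 18mo and after 4 elevations.

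The promoters of genes that were called with age (Gngt1, Sag) and of genes that were not (Pde6b, Cngb1) are shown to let their sequence be compared. Each runs from 250 bases before to 50 bases after the RefSeq start on the strand of the gene, taken from RefSeq for GRCm38.p6 (mm10). Capitals mark 2 motifs, searched on both strands. GGATTA, which reads TAATCC on the other strand, is the core site of CRX, the homeodomain factor of photoreceptors, and TGCTGA, which reads TCAGCA there, is the half-site of NRL, the factor that specifies rods. The windows are chr6:3993758-3994057 for Gngt1, chr1:87803430-87803729 for Sag, chr5:108388123-108388422 for Pde6b and chr8:95306536-95306835 for Cngb1.
Gngt1: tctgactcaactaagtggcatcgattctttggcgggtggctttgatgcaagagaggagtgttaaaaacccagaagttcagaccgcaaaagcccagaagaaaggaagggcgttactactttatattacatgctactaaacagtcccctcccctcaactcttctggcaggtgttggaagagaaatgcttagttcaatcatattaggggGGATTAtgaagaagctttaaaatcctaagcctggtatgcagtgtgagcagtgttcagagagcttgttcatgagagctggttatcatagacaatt
Sag: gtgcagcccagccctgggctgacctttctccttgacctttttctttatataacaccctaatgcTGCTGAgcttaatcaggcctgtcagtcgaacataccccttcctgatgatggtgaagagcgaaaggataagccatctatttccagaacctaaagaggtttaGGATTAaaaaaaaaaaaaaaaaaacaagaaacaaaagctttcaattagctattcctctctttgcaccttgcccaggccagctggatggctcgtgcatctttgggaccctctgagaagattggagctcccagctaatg
Pde6b: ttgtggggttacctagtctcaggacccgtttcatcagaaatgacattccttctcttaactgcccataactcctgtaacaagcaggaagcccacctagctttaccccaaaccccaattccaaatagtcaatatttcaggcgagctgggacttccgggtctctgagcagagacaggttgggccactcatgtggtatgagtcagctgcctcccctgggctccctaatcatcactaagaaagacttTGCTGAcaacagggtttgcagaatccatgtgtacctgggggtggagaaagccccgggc
Cngb1: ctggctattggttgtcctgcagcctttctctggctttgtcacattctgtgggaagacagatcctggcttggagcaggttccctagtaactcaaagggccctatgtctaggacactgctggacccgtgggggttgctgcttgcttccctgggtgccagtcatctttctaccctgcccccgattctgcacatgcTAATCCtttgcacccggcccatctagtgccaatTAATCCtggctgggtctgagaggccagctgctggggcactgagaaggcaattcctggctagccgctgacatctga
Of the 9 genes, 6 were matched in the promoter table, and Gnat1, Pde6a and Pde6g were not. A GGATTA match was present in 4 of the 6, against 7.06% of all 32851 promoters, and a TGCTGA match in 2 of the 6, against 19.5%. Gngt1 had a GGATTA match starting 44 bases before the start. Sag had one 87 bases before and a TGCTGA match 187 bases before. Cngb1 had matches 58 and 25 bases before, Cnga1 a match 228 bases before, Pde6b a TGCTGA match 8 bases before, and Gnb1 neither motif. No matches overlapped each other. The motifs were thus present in called and uncalled genes alike, and a match is a description of the letters only.

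In 3mo retinas none of the 9 genes was called after a single elevation, in a comparison where 0.00728% of all genes were called lower, and the log2 fold changes lay between -0.26 and 0.10 (limma adjusted p of 0.948 or more). None had an unadjusted p under 0.05 or was called by voom on the recovered reads. Both treated libraries lay below both controls for Gnb1, Pde6a, Pde6b and Cnga1, against 3.95% of all genes. The largest of these differences was in Cnga1, with 568 and 510.2 FPKM in control eyes and 428 and 469 FPKM in IOP eyes (log2 fold change -0.26, 95% confidence interval -0.83 to 0.31). Pde6a had 739.5 and 652 FPKM in control eyes and 573 and 587 FPKM in IOP eyes (log2 fold change -0.26, interval -0.93 to 0.41). For Gngt1 both treated values lay between the 2 control values, and without 3mo control replicate 2 its log2 fold change was 0.44 in place of -0.17. The intervals of all 9 genes include 0 and reach below -0.44, so a decrease of that size is not excluded for any of them.

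In 18mo retinas a single elevation again gave no call among the 9 by limma, with 0.00728% of all genes called lower and none of the 9 at an unadjusted p under 0.05 or called by voom. Gnat1, Gnb1, Pde6b and Pde6g lay lower in both IOP libraries than in both controls, against 9.89% of all genes, and Sag lay higher in both, as did 36.5% of all genes. Gnat1 had 4868 and 4277 FPKM in control eyes and 3061 and 4165 FPKM in IOP eyes (log2 fold change -0.35, standard error 0.43, adjusted p = 0.999 in limma). Sag had 2236 and 2195 FPKM in control eyes and 2488 and 3534 FPKM in IOP eyes (log2 fold change 0.42, standard error 0.47, adjusted p = 0.999 in limma). For all 9 genes replicate 1 was the lower of the 2 IOP libraries, and without it the log2 fold changes of Pde6a, Gngt1 and Cngb1 were above 0 (0.09, 0.16 and 9e-04). The difference between the responses at the 2 ages was tested as an interaction, in which limma called 0% of the 13731 genes, with 218 of them and none of the 9 at an unadjusted p under 0.05, and voom called none. For the 9 genes the interaction lay between -0.32 and 0.32 on the log2 scale, with standard errors of 0.33 to 0.68.

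After 4 elevations, Gnat1, Gnb1 and Pde6g had about 2-fold lower FPKM in treated than in contralateral control eyes, without passing the test. None of the 9 genes was called by limma, and 3 had an unadjusted p under 0.05, with 0.693% of the 13718 genes tested called lower and 5.45% called higher. Both 4xIOP libraries lay below both controls for 8 of the 9, against 12.7% of all genes, and the median log2 fold change of the 9 was -0.72 against 0.10 for all genes. The directions of all 9 genes held in each alternative tried, those that leave out a library and those that rescale the libraries included. The count of calls did not: it was 3 (Gnat1, Gnb1 and Pde6g) with variances moderated without a trend and 3, the same genes, with voom in limma on the recovered reads. It was 1 with median-of-ratios size factors (Gnb1) and 1 with the length trend removed (Pde6g), and 0 in the others.

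Of transducin, Gnat1 had 2535 and 2835 FPKM in the 4xIOP control and 1031 and 1558 FPKM in the 4xIOP libraries. The log2 fold change was -1.08 (standard error 0.55, adjusted p = 0.411 in limma, and 0.00644 after voom on the recovered reads). Gnb1 had 912 and 764 FPKM in control and 343 and 481 FPKM in treated eyes (log2 fold change -1.04, standard error 0.45, adjusted p = 0.267 in limma, and 0.00485 with voom). Both lay well below their controls in both treated libraries. Gngt1 had 969.8 and 929 FPKM in control and 441 and 879 FPKM in treated eyes, so that the second treated library was close to the controls (log2 fold change -0.61, adjusted p = 0.753 in limma).

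Of the phosphodiesterase, Pde6g had 877 and 869 FPKM in control and 301 and 540.0 FPKM in treated eyes, with a log2 fold change of -1.11 (standard error 0.47, adjusted p = 0.246 in limma, and 0.00811 with voom). Pde6b had 539 and 574 FPKM and 272 and 420.5 FPKM (log2 fold change -0.72, adjusted p = 0.538 in limma). Pde6a had 393 and 418 FPKM and 224 and 316 FPKM (log2 fold change -0.61, adjusted p = 0.612 in limma). In each of the 3 genes the first treated library was the lower, as it was for all 9 genes. Without 4xIOP replicate 1 the median log2 fold change of the 9 genes was -0.40, and without 4xIOP replicate 2 it was -1.03. Of the channel, Cnga1 had 150.4 and 168 FPKM in control and 92.7 and 139.6 FPKM in treated eyes (log2 fold change -0.48, adjusted p = 0.690 in limma). Cngb1 had 127 and 164 FPKM and 79.5 and 92.6 FPKM (log2 fold change -0.75, adjusted p = 0.289 in limma), with both treated values below both controls.

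Sag stood apart from the other 8 genes in direction. It had 1699.9 and 1313 FPKM in the 4xIOP control and 1583 and 2571 FPKM in the 4xIOP libraries, with overlap between the groups (log2 fold change 0.43, standard error 0.56, adjusted p = 0.887 in limma). Its ratio to Gnat1 in the same library was 0.671 and 0.463 in control and 1.54 and 1.65 in treated eyes. The same ratio was 0.459 and 0.513 in 18mo control and 0.813 and 0.849 in 18mo IOP eyes, again without overlap. In 3mo eyes it was 0.759 and 1.51 in control and 1.10 and 1.27 in IOP eyes, which overlapped. Between treated and control eyes these ratios were not tested, and with 2 libraries against 2 an exact two-sided permutation test cannot fall below 0.333. Between the ages the ratio overlapped (exact permutation p = 0.0857 over 4 against 4 libraries, two-sided).

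Of the regulators of the rod cascade, a list of 11 genes, 2 were called lower and 1 higher with age in untreated eyes, near the 11.6% of all genes called in each direction, and the median log2 fold change was -0.19. Pdc, phosducin, which binds the transducin beta and gamma subunits, had 4879 and 8301 FPKM at 3mo and 2793 and 2251 FPKM at 18mo (log2 fold change -1.34, adjusted p = 0.0390 in limma). Guca1a, which activates guanylate cyclase when calcium falls, had 1721 and 3972 FPKM at 3mo and 911 and 890.0 FPKM at 18mo (log2 fold change -1.54, adjusted p = 0.0224 in limma). The transcripts of Pdc and Guca1a have 1229 and 890 bases, and as with Gngt1 and Sag the higher 3mo value of both was that of replicate 2. Rgs9bp, the membrane anchor of the complex that speeds transducin shut-off, has a transcript of 6584 bases and rose from 95.1 and 54.9 FPKM to 176 and 152 FPKM (log2 fold change 1.17, adjusted p = 0.0112 in limma). In treated eyes Guca1a (-1.61, adjusted p = 0.0214 in limma) and Pdc (-1.33, adjusted p = 0.0429 in limma) were the 2 of 11 called, both lower, as were 11.6% of all genes.

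After 4 elevations all 11 regulators lay below their controls in both libraries, against 12.7% of all genes, with a median log2 fold change of -0.74, and 2 were called lower, against 0.693% of all genes. Rgs9bp fell from 74.9 and 84.1 FPKM to 34.1 and 31.3 FPKM (log2 fold change -1.27, adjusted p = 0.0117 in limma), and Gucy2f, a photoreceptor guanylate cyclase, from 32.4 and 35.1 FPKM to 12.5 and 19.6 FPKM (log2 fold change -1.08, adjusted p = 0.0268 in limma). Pdc had 969.3 and 958 FPKM in control and 371 and 579 FPKM in treated eyes (log2 fold change -1.05, adjusted p = 0.282 in limma). None of the 11 was called after a single elevation at either age. At 18mo 7 of them lay below both controls, against 9.89% of all genes, with a median log2 fold change of -0.33, and at 3mo 0 of them did, against 3.95%.

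Of 10 genes of outer segment structure, none was called with age in untreated eyes (median -0.36), where 11.6% of all genes were called in each direction, and 1 was called lower in treated eyes, near the 11.6% of all genes called lower there. This was Fscn2, an actin-bundling protein of photoreceptors (log2 fold change -1.14, adjusted p = 0.0238 in limma). Prph2, a disc rim protein, had 2215 and 2227 FPKM in 3mo control and 1515 and 1387 FPKM in 18mo control eyes (log2 fold change -0.62, adjusted p = 0.135 in limma). Unc119, a lipid-binding carrier of the transducin alpha subunit, had 1209 and 1784 FPKM and 1141 and 1058 FPKM (log2 fold change -0.42, adjusted p = 0.315 in limma). With a single elevation at 18mo, 5 of the 10 lay below both controls and 1 above, against 9.89% and 36.5% of all genes. Their median was -0.20 and none was called. At 3mo 1 lay below and 1 above, against 3.95% and 28.6%, with a median of 0.04 and none called. After 4 elevations 7 of the 10 lay below their controls in both libraries, against 12.7% of all genes. Impg2, a component of the matrix around photoreceptors, was the 1 gene of the list called, higher as were 5.45% of all genes, with 41.4 and 45.6 FPKM in control and 85.5 and 117 FPKM in treated eyes (log2 fold change 1.19, adjusted p = 0.0283 in limma).

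The 8 cone counterparts, the cone forms of the same cascade, had a median log2 fold change of 0.38 with age in untreated eyes, where that of the rod genes was -0.79. The rod median was 0.04 under quantile normalization and -0.54 with the length trend removed, and no such median was taken for the cone list. Cnga3 (1.20, adjusted p = 0.00878 in limma) and Pde6c (1.15, adjusted p = 0.0108 in limma) were called higher, as were 11.6% of all genes, and the 2 with the highest levels, Pde6h (-0.67, adjusted p = 0.229 in limma) and Gngt2 (-1.08, adjusted p = 0.0901 in limma), were not called. Cnga3 and Pde6c have transcripts of 3546 and 2939 bases, and Pde6h and Gngt2 of 552 and 549 bases. In treated eyes the median of the 8 had the opposite sign, -0.20, with that of the rod genes at -0.84, and 1 of 8 was called lower, near the 11.6% of all genes. This was Gngt2, the cone transducin gamma subunit (log2 fold change -1.43, adjusted p = 0.0395 in limma). With a single elevation at 18mo, 6 of the 8 lay below both controls and 1 above, against 9.89% and 36.5% of all genes. Their median was -0.56, with that of the rod genes at -0.31 and none of the 8 called. At 3mo 1 lay below and 1 above, against 3.95% and 28.6%, with a median of -0.09 and none called. After 4 elevations 6 of the 8 lay below both controls, against 12.7% of all genes, with a median of -0.47. Of the 8, 2 were called lower and 1 higher, against 0.693% and 5.45% of all genes. Arr3, the cone arrestin, fell from 137 and 190.1 FPKM to 21.8 and 22.9 FPKM (log2 fold change -2.83, adjusted p = 3.6e-05 in limma). Gnb3, the cone transducin beta subunit that ON bipolar cells also use, rose from 86.6 and 90.0 FPKM to 262 and 343 FPKM (log2 fold change 1.76, adjusted p = 0.00575 in limma). The other gene called lower, named after its values were seen, was Gnat2, the cone transducin alpha subunit (log2 fold change -1.04, adjusted p = 0.0417 in limma). The difference between the rod and cone lists was not tested.

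Markers of other cells moved in the same comparisons, in which 11.6% of all genes were called in each direction with age in untreated eyes, 11.6% lower and 10.2% higher with age in treated eyes, and 0.693% lower and 5.45% higher after 4 elevations. Between 3mo and 18mo control eyes, summed FPKM of the 6 ganglion cell markers went from 309 to 623 down to 32.8 to 74.7, with 5 of 6 called lower. The 6 pigment epithelium markers went from 28.8 to 48.0 down to 1.05 to 4.53, with all 5 tested called lower and Mlana listed at 0 in 18mo control replicate 2. Markers of bipolar cells went from 107 to 109.7 up to 192 to 247 (3 of 5 called higher), those of Muller glia from 458 to 590.4 up to 931 to 1195 (2 of 5) and those of microglia from 5.11 to 6.81 up to 15.0 to 16.5 (2 of 5). Marker values are given without the length trend removed. The called bipolar cell markers, Grm6, Trpm1 and Prkca, have transcripts of 4319, 5666 and 8350 bases. Among ganglion cell markers, Sncg, with the largest fall (log2 fold change -4.64), has 725 bases and the others 1729 to 3791. Between 3mo and 18mo IOP eyes, 6 of 6 ganglion cell markers (438.9 to 502 down to 30.3 to 83.5) and 5 of 5 pigment epithelium markers (138 to 298 down to 1.61 to 1.63) were called lower, and 3 of 5 bipolar cell, 3 of 5 Muller glia and 2 of 5 microglia markers higher. After 1 elevation at 18mo all 5 cone markers lay below both controls, against 9.89% of all genes, with none called and a median log2 fold change of -0.69. After 4 elevations the microglia markers stood at 26.3 to 29.7 against 3.28 to 3.30 in control eyes (4 of 5 called higher), the lens markers at 3.07 to 6.15 against 0.515 to 0.717 (3 of 3 tested called higher) and the cone markers at 163 to 235 against 483 to 494 (3 of 5 called lower). The summed Muller glia markers were also lower, at 439.9 to 563 against 740.4 to 775, but the list was split. Glul, the highest of them, fell from a mean of 586 to 270 FPKM. Of the 5, 3 lay above both controls and 2 below, against 27.7% and 12.7% of all genes. Their median log2 fold change was 0.42, and 1 was called, higher. Summed pigment epithelium markers were lower, at 1.28 to 2.07 against 4.42 to 5.54 (the 1 tested called lower). Pigment epithelium markers were also higher in 3mo IOP (138 to 298) than in 3mo control eyes, with 1 of 5 called higher, against 0.568% of all genes. Blood markers lay lower in 18mo IOP (44.3 to 54.3) than in 18mo control eyes (166 to 426), with none of 5 called. Their part in the values of the rod genes was not tested. Libraries of the repeated series also held between 3.91% and 5.39% of exon reads in Rpph1, the RNA component of ribonuclease P, against at most 0.0013% in the single-IOP series.

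The genes most like the mean of the 9 over the 8 single-IOP libraries, among 5242 other genes that averaged 10 FPKM or more, were A330094K24Rik (Pearson r 0.995), A930006I01Rik (0.993), Zfp68 (0.992), Zfp37 (0.990) and Meig1 (0.988). These values are descriptive, since the 8 libraries fall into 2 ages and share the length trend.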

How the data were processed

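RNA of fresh whole retinas was extracted with TRIzol and sequenced as strand-specific poly(A) libraries. Per the submitters' processing notes, reads were aligned to mm10 with STAR 2.7.8a. The authors counted uniquely mapped tags in exons with HOMER, with a single isoform per locus, and deposited FPKM values in a table per series, with each replicate in a column of its own.

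The members and lists were chosen with earlier results of these data known. Depth was recovered from FPKM values, which multiplied by transcript length gave whole reads (within 0.1 read) for 100% of the values checked. For genes averaging 0.5 FPKM or more, log2(FPKM + 0.5) was fitted with limma 3.58.1 (R 4.3.3; eBayes with a trend), the 8 single-IOP libraries together as 4 groups and the 4 repeated-series libraries alone. Fold changes on this scale understate changes of low genes. Alternatives were pseudocounts of 0.1 and 1, no filter, a filter at 2 FPKM, median-of-ratios or quantile scaling, eBayes without a trend, a replicate block, the length trend removed (spline of 5 degrees of freedom), voom on recovered reads, only the 2 groups compared, the adjusted p alone, and each library left out. A crossed block was chosen after seeing the data. The study describes the 2 libraries of a group as biological replicates. Genes named are the 9 members, the 2 genes of each list with the highest mean, those with the 2 smallest adjusted p among calls, and the 5 most alike. Scripts were tested on simulated data. With strand-specific counting, the genes that overlap Gnb1 and Pde6a on the other strand do not add to them, while Cnga1 overlaps Gm5297 on the same strand.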

Additional observations from a re-analysis of the deposited data

How the results depend on the processing

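In untreated eyes 3 rod genes were called with age, but 0 without a filter on low values, 0 under quantile normalization and 0 when only the 2 groups compared were fitted, and with a library left out the count ran from 0 to 3. In treated eyes it was 2, with 0 without a filter, 0 under quantile normalization, 4 with voom on recovered reads, 4 by the adjusted p alone, and 0 to 2 with a library left out. After 4 elevations it was 0, with 1 for median-of-ratios size factors, 3 for eBayes without a trend, 1 with the length trend removed and 3 with voom. The cause of these differences was not tested, except that fits of fewer libraries have fewer degrees of freedom. For a single elevation and for the interaction it was 0 in every alternative tried.

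Log2 fold changes changed sign or reached 0 as follows. Under quantile normalization they were 0.46 for Gnat1, 0.42 for Pde6b, 0.041 for Sag and 0.36 for Pde6a with age in untreated eyes, and 0.59 for Gnat1, 0.10 for Pde6b, 0.41 for Pde6a and 0.53 for Cngb1 in treated eyes. They were also 0.084 for Pde6g and -0.059 for Cngb1 after 1 elevation at 3mo, and 0 for Gnat1 at 18mo. With the length trend removed Cngb1 was 0.29 with age in treated eyes and -0.0075 after 1 elevation at 3mo. There, Sag was -0.11 and Cngb1 -0.12 with median-of-ratios size factors, and -0.11 and -0.12 with voom. With a library left out, the range with age in treated eyes was -0.49 to 0.10 for Pde6a and -0.30 to 0.087 for Cngb1. At 3mo it was -0.10 to 0.026 for Gnat1, -0.34 to 0.55 for Sag, -0.77 to 0.44 for Gngt1 and -0.0053 to 0.18 for Cngb1, and at 18mo -0.49 to 0.09 for Pde6a, -0.26 to 0.16 for Gngt1 and -0.38 to 9e-04 for Cngb1.

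The labels give both groups the same replicate numbers, but same-numbered libraries did not deviate together (r of -0.275 at 3mo, -0.530 at 18mo, -0.290 after 4 elevations). Between the ages, where no animal is shared, r was -0.121 and -0.148. With 2 libraries per group, these values cannot show whether a number pairs libraries or the numbers are crossed. The labels do not settle this either. Summed blood markers of replicates 1 and 2 were 19.5 and 262 in control and 29.3 and 313 in IOP eyes at 3mo. At 18mo they were 166 and 426 in control and 54.3 and 44.3 in IOP eyes. In the repeated series they were 56.1 and 37.3 in control and 37.45 and 56.8 in treated eyes. With a replicate block, 2 rod genes were called with age in untreated eyes, 2 in treated eyes and 0 elsewhere. With crossed numbers, 3, 2 and 0 were called. Over all genes the block gave 20 calls at 3mo and 0 at 18mo, and the crossed block 94 and 52, where the fit without a block gave 79 and 17. Over all genes, median-of-ratios size factors called 1058 genes higher and 1976 lower with age in untreated eyes in place of 1595 and 1590, with a median log2 fold change of 0.01 in place of 0.16. Each group has 2 libraries, and the parts of depth and of their number in the errors were not compared.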
